A study of Homo sapiens with 12 samples.

Results

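The promoters of 60 splicing-factor genes were followed in H3K4me3 maps of BON1 cells. H3K4me3, trimethylation of histone H3, marks the nucleosomes around the start sites of active genes. The members were all protein-coding genes in the GENCODE annotation on GRCh37 (hg19) whose symbol begins with SNRP, LSM, SF3A, SF3B, PRPF or SRSF followed by a letter or digit, without SNRPN and without symbols that hold a hyphen. They make up 60 of 20136 protein-coding genes: 11 SNRP, 15 LSM, 3 SF3A, 6 SF3B, 13 PRPF and 12 SRSF genes. LSMEM1 and LSMEM2 entered through their letters alone, as they encode leucine-rich membrane proteins and not Sm-like proteins.

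BON1 is an established human pancreatic neuroendocrine tumor line. Control cells (BON1/TGL/pQ) and a derivative (BON1/TGL/HA-Bcl-xL) that overproduces Bcl-xL, a protein that blocks apoptosis, with an HA tag, were profiled by CUT&RUN, in which an antibody directs a nuclease to chromatin and the released fragments are sequenced. Both lines were grown in the same medium with puromycin, and 500000 cells per condition were used with an H3K4me3 antibody or with IgG as background. The labels name 3 replicates for each line and antibody; the peak lists used here came from 11 libraries, with 3 control and 2 HA-Bcl-xL H3K4me3 libraries (replicates 2 and 3 of the latter) and 6 IgG libraries. The first HA-Bcl-xL replicate with the H3K4me3 antibody was not analysed here. The labels do not say whether replicates were separate cultures or whether a line is 1 clone, so the p-values measure only the spread between these libraries, which may be technical.

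The spliceosome removes introns from pre-mRNA. Its small nuclear ribonucleoproteins (snRNPs) are built on a ring of Sm proteins, encoded by SNRP genes, or, on U6, on a ring of Sm-like proteins encoded by LSM genes. SF3A and SF3B are the protein complexes with which the U2 snRNP holds the branch point, PRPF genes encode factors of the U4/U6.U5 tri-snRNP, the U1 snRNP and the activated spliceosome, and SRSF genes encode the serine/arginine-rich (SR) proteins that bind exons and recruit snRNPs. Most of these proteins are needed in every dividing cell, and their genes typically have CpG-rich promoters.

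The DNA just before the most 5′ annotated end, without annotated exons, is shown for 4 members: those with the most H3K4me3 fragments in the SF3B, PRPF and SRSF families, and LSM4, which had the most after LSM1 among the LSM genes. No sequence is shown for the other 2 families. Sequences were read from GRCh37 on the gene's strand, and capitals mark matches, on either strand, to CCAAT or to GGGCGG or to CCGGAAG, motifs commonly found in promoters of housekeeping genes.
LSM4 (chr19:18433923-18434172, minus strand): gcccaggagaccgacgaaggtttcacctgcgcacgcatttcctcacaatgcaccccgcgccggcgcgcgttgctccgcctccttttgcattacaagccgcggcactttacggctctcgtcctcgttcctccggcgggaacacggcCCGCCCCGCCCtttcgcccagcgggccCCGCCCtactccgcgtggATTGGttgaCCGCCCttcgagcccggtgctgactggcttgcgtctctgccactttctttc
SF3B4 (chr1:149899696-149899945, minus strand): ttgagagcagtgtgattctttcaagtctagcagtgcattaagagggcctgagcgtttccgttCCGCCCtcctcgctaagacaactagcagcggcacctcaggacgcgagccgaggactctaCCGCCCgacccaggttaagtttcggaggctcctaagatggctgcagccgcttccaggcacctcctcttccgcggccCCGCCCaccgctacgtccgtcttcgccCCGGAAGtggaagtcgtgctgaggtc
PRPF38B (chr1:109234811-109234931, plus strand): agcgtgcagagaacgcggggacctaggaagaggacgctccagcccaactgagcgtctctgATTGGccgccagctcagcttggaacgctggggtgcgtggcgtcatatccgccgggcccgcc
SRSF4 (chr1:29508413-29508662, minus strand): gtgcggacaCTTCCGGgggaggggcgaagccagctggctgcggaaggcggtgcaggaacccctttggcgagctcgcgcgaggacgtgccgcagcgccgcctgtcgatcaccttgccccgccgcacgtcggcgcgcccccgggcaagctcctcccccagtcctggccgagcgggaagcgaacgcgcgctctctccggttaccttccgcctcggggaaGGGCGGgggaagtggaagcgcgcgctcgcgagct
LSM4 held 4 matches to GGGCGG and 1 to CCAAT. SF3B4 held 3 matches to GGGCGG and a CCGGAAG that began at -26 bases from the 5′ end. A single CCAAT match at -61 bases from the end was found in the 121 bases shown for PRPF38B. These matches are descriptions of the letters, not binding sites.

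The height of H3K4me3 was read at each peak's summit, the base with the most fragments. For 3 of the members whose summits fell inside an intron at almost the same base in all 5 H3K4me3 libraries, a stretch of 71 bases is shown with capitals from the lowest to the highest of the 5 summits.
SRSF4 (chr1:29507944-29508014, minus strand): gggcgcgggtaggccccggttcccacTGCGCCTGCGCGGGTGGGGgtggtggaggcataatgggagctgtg
SNRPA1 (chr15:101834982-101835052, minus strand): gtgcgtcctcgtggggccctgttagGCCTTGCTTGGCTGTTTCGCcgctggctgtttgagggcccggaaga
SNRPB (chr20:2450813-2450883, minus strand): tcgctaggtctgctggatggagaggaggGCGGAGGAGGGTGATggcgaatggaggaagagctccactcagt
The capitals span 19 bases in SRSF4, 20 in SNRPA1 and 15 in SNRPB, so libraries of both lines placed their summits within those few bases.

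Peaks were present at most of the 60 promoters in every H3K4me3 library and at none in the IgG libraries. A gene was called where a peak of the library's list touched the stretch within 1 kb of its most 5′ end. In control replicates 1 to 3, 49, 41 and 41 of the 60 members were called, against 40.4%, 32.4% and 28.2% of all protein-coding genes. In HA-Bcl-xL replicates 2 and 3, 42 and 43 members were called, against 38.1% and 36.5% of all genes. The members' share was thus 1.84 to 2.43 times that of all genes in each library. Within 2.5 kb the calls were 53, 47 and 46 members in control cells and 48 and 47 in HA-Bcl-xL cells, against 45.8%, 37.8%, 33.0%, 43.4% and 41.8% of all genes in the same order. Control replicate 1, which also had the longest list, had the most members called under both windows.

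**Figure D1:**
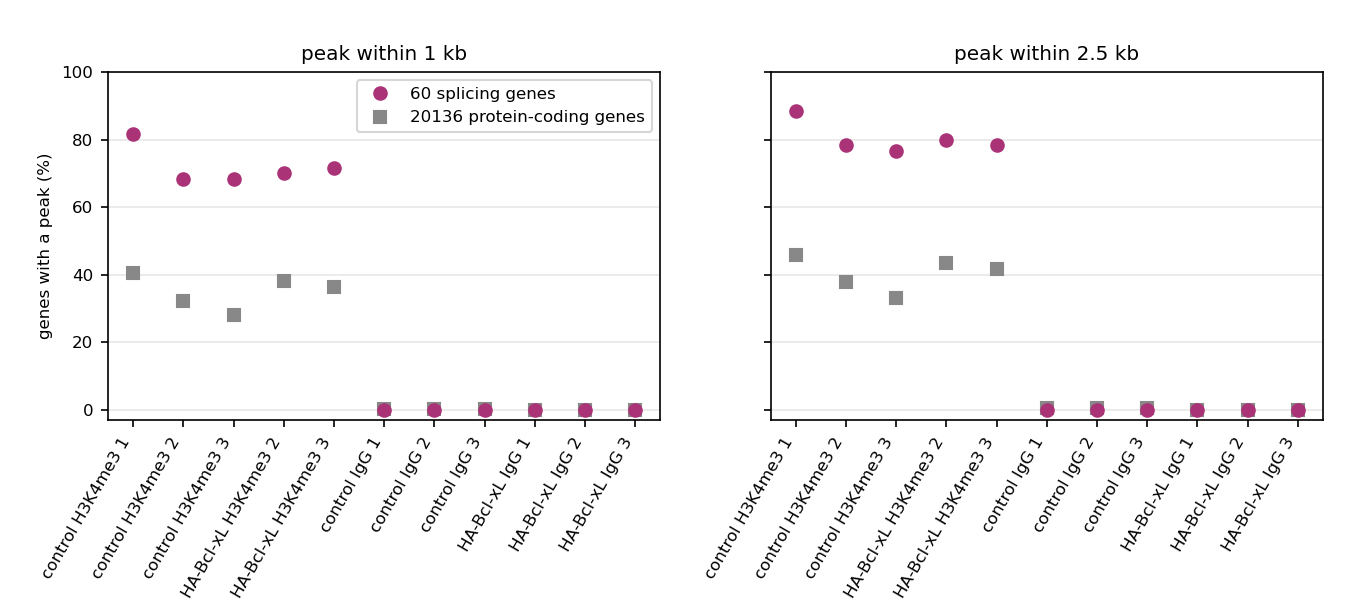
Percent of the 60 splicing genes (circles) and of all 20136 protein-coding genes (squares) with a peak within 1 kb (left) or 2.5 kb (right) of the most 5′ end, 1 point per library. The 5 H3K4me3 libraries have 41 to 49 of the 60 genes called within 1 kb, above the share of all genes in each library, and the 6 IgG libraries have 0.

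The mean share of members called within 1 kb was 72.8% ± 7.70 (SD, n = 3) in control and 70.8% ± 1.18 (SD, n = 2) in HA-Bcl-xL cells. The difference, HA-Bcl-xL minus control, was -1.94 percentage points, less than the SD between the control libraries (two-sided exact permutation p = 1). Within 2.5 kb the means were 81.1% ± 6.31 (SD, n = 3) and 79.2% ± 1.18 (SD, n = 2), again -1.94 points apart (exact permutation p = 1). With 3 libraries against 2, the smallest p this test can give is 0.2. Without control replicate 1 the direction turned, with differences of 2.5 points within 1 kb and 1.67 points within 2.5 kb. With lists of equal length the differences were -4.72 (exact permutation p = 0.4) and -6.67 points (p = 0.2, the smallest possible), and with a −log10 q of at least 5 they were 0.278 and 0.00 points.

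In the IgG libraries 0 of 60 members were called within 1 kb, and 0 within 2.5 kb, in each of 6 libraries, while 0.00497 to 0.253% of all genes were called within 1 kb. H3K4me3 exceeded IgG by 72.8 points in control cells (two-sided exact permutation p = 0.1, the smallest possible with 3 against 3; adjusted p = 0.4 over 4 tests). In HA-Bcl-xL cells it exceeded IgG by 70.8 points (exact permutation p = 0.2, the smallest possible; adjusted p = 0.4). The groups did not overlap in either line. The only IgG peak within 1 kb of any annotated transcript end of a member lay at SF3A1, a subunit of the U2 snRNP, in control IgG replicate 2.

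A total of 33 members (55.0%) had a peak within 1 kb in all 5 H3K4me3 libraries, against 21.3% of all genes. Within 2.5 kb this held for 36 members (60%) against 25.6% of genes. Around the 5′ end of the MANE Select transcript, the representative transcript chosen by annotators, it held for 32 members (53.3%) against 23.2% of the 18917 genes that have one. A further 18 members were called within 1 kb in 1 to 4 libraries, and 9 in none (15.0%, against 51.8% of all genes).

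No member separated the lines. The number called within 1 kb in each HA-Bcl-xL library but in none of the controls was 0, against 0.844% of all genes, and the number with a peak in all control libraries and neither HA-Bcl-xL library was also 0, against 0.248%. At such background shares fewer than 1 of 60 genes would be found in either direction, so these counts are near the background and are no result about the members. With 1 library left out, at most 2 members appeared in a direction. LSM6 and SRSF1 were control-only without HA-Bcl-xL replicate 3 (0.765% of all genes were), LSM7 without HA-Bcl-xL replicate 2 (1.16%) and PRPF19 without control replicate 3 (0.844%). SNRPD3 was HA-Bcl-xL-only without control replicate 1 (3.04% of all genes) and LSM14B without HA-Bcl-xL replicate 3 (2.53%). Such counts of 1 or 2 are again no result about the members.

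The families differed in how often their promoters were called. Over the 5 libraries the mean share called within 1 kb was 92.7% for SNRP, 93.3% for SF3A, 86.2% for PRPF, 73.3% for SF3B, 57.3% for LSM and 50% for SRSF genes. With the window at 2.5 kb, SRSF rose to 78.3% and SF3B to 83.3%, while SNRP, SF3A and PRPF stayed at the same values. Around any transcript's 5′ end, SRSF reached 85.0%, but LSM reached only 62.7%. Around the MANE Select end alone, SRSF reached 56.7%, SF3B 83.3% and LSM 62.7%, while PRPF was at 80.0%. SRSF genes thus gained most with the wider window or when every transcript's end counted, but not at the MANE Select end, where SF3B gained more. The LSM shares count LSMEM1 and LSMEM2, which had a peak under none of these rules and lower them. All these shares are descriptions, since genes of a family are not replicates.

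**Figure D2:**
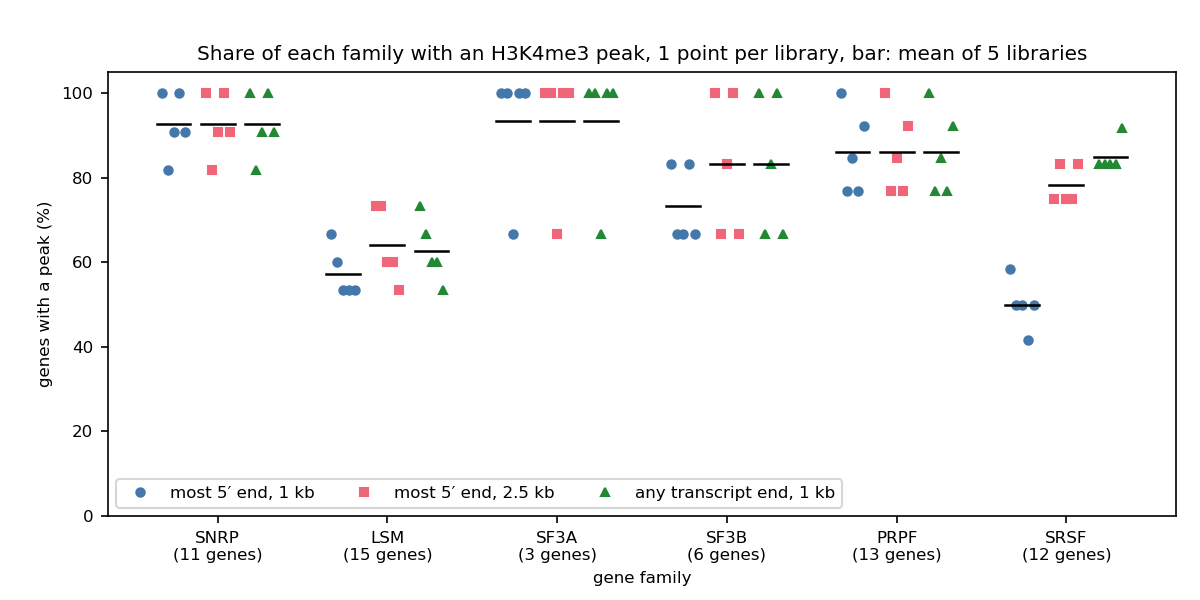
Percent of each family's genes with an H3K4me3 peak, by library (1 point each), under 3 rules: within 1 kb of the most 5′ end (circles), within 2.5 kb of it (squares) and within 1 kb of any transcript's 5′ end (triangles); bars are means of the 5 libraries. SRSF moves from a mean of 50% to 78.3% and 85.0%, and LSM from 57.3% to 64.0% and 62.7%.

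Peak height was compared as the number of fragments at the highest summit, solved from the authors' fold and p of that peak. All peaks touching the stretch within 1 kb were used, so a summit could lie beyond it, as at LSM1 (1013 to 1030 bases). Among the genes called in all 5 libraries, the median was 19, 16 and 14 fragments for the 33 members in control replicates 1 to 3, against 18, 13 and 11 for all 4289 such genes. It was 17 against 15 in both HA-Bcl-xL libraries. Between 17 and 20 of the 33 members lay above the median of all such genes, depending on the library. The members' medians were thus higher in each library, by no more than 3 fragments.

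**Figure D3:**
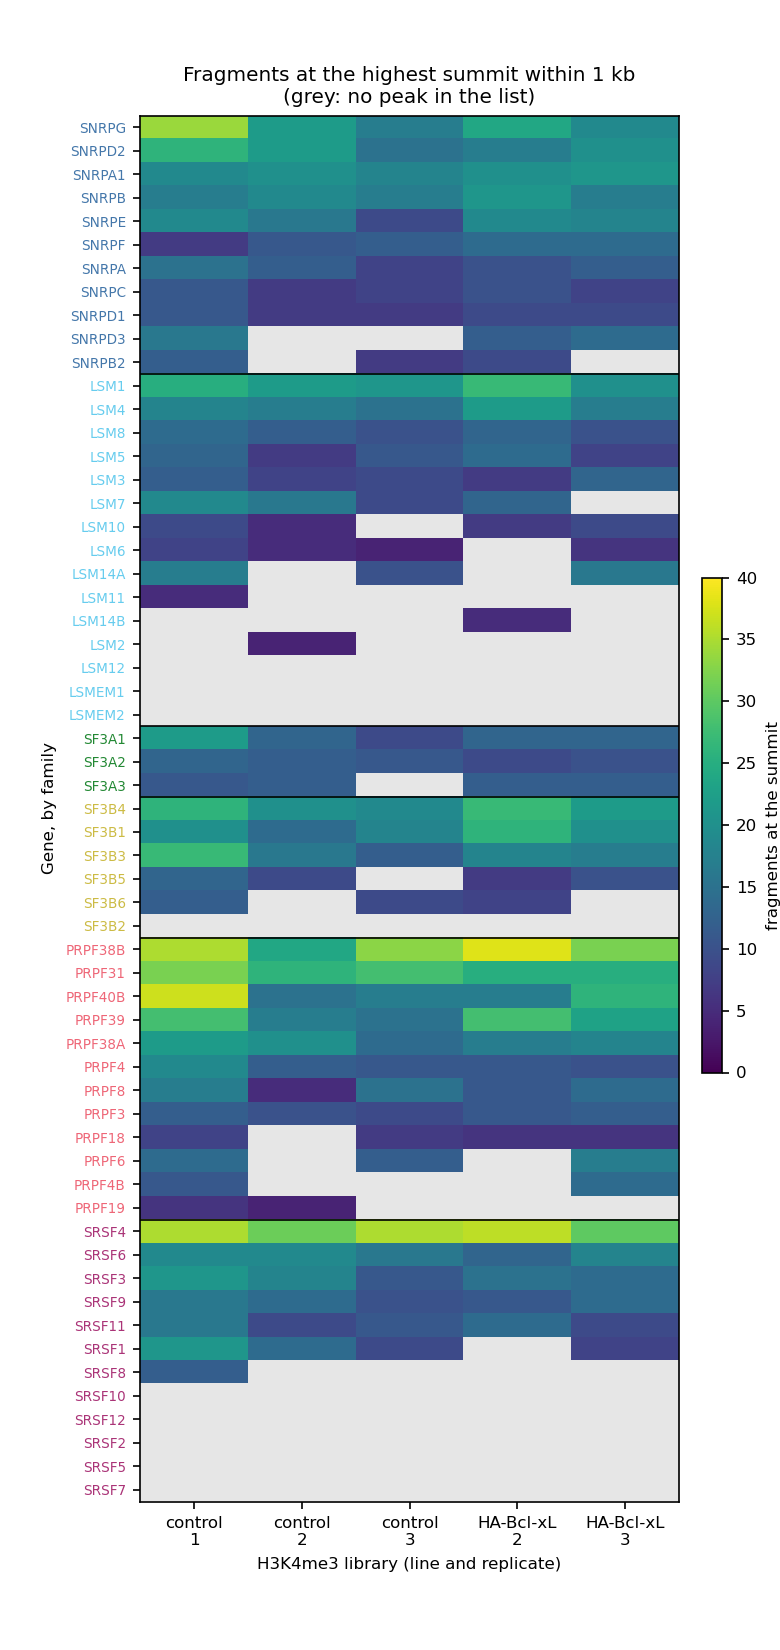
Fragments at the highest summit of peaks within 1 kb of the most 5′ end, for 59 of the 60 genes (rows, grouped by family). Columns are the 5 H3K4me3 libraries (line and replicate), and grey means that the list has no peak there. Peaks touching the 1 kb stretch count, so some summits lie beyond it. SRSF4, PRPF38B and PRPF31 are bright in all columns, and the lower rows of the LSM and SRSF blocks are grey.

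Of the 11 SNRP genes, 9 were called in all 5 libraries and 2 in 3 libraries. SNRPG, a subunit of the Sm ring, had 34, 22 and 17 fragments at its summit in the controls (replicates 1 to 3, the order used below) and 24 and 19 in the HA-Bcl-xL libraries (replicates 2 and 3). Its peaks covered 751, 587 and 370 bases in control and 758 and 459 in HA-Bcl-xL cells, the widest mean of the family (585 bases). Both lines' values overlapped. SNRPD2, another Sm subunit, had 26, 22 and 15 fragments in control and 17 and 20 in HA-Bcl-xL cells. SNRPA1, a protein of the U2 snRNP, varied least of these, with 19, 20 and 18 fragments in control and 20 and 21 in HA-Bcl-xL cells. The lowest of the 9 was SNRPD1, also of the Sm ring, with 11, 7 and 7 against 9 and 9. SNRPD3, an Sm subunit, had no peak in control replicates 2 and 3, and SNRPB2, a U2 snRNP protein, had none in control replicate 2 and HA-Bcl-xL replicate 3.

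Among the 15 LSM genes, 5 were called in all 5 libraries, 7 in some and 3 in none. LSM1, which directs a cytoplasmic ring to decaying mRNA, was the highest with 25, 22 and 21 fragments in control and 27 and 20 in HA-Bcl-xL cells. LSM4, a subunit of both Sm-like rings, had 18, 17 and 15 fragments in control and 22 and 17 in HA-Bcl-xL cells. LSM8, which defines the nuclear ring on U6, had 14, 12 and 10 against 13 and 10. LSM3, the lowest of the 5, had 12, 8 and 9 against 7 and 13. LSM5, whose peaks cannot be told apart from those of AVL9 on the opposite strand, completed the 5. In each of these genes the lines overlapped.

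The other Sm-like subunits were called less steadily. LSM7 was called in 4 libraries with 9 to 19 fragments, and LSM6 in 4 with only 4 to 8. LSM2 was called only in control replicate 2, with 4 fragments. LSM2 lies in the major histocompatibility region, of which hg19 holds alternative copies. Only peaks on the main chromosomes were counted, so its calls are uncertain. LSM10 and LSM11, which belong to the U7 snRNP of histone mRNA processing, were called in 4 libraries (5 to 9 fragments) and in 1 library (5 fragments). LSM14A, a component of cytoplasmic mRNA granules, was called in 3 libraries with 10 to 17 fragments, and its paralog LSM14B in 1 with 5. LSM12 had no peak within 1 kb, but in 4 libraries one had its summit 1328 to 1574 bases downstream with 8 to 15 fragments. For LSMEM1 and LSMEM2 no library listed a peak within 2.5 kb; the nearest peaks lay 28157 to 28916 bases from LSMEM1 and 5920 to 13301 bases from LSMEM2.

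All 3 SF3A genes and 5 of 6 SF3B genes were called in at least 3 libraries. SF3A1 had 22, 13 and 9 fragments in control and 13 and 13 in HA-Bcl-xL cells, and SF3A2 had 13, 12 and 11 against 9 and 10. SF3A3 lacked a call only in control replicate 3 and had the widest mean of the family, 329 bases over 4 libraries. SF3B4, which contacts RNA near the branch point, had 26, 20 and 19 fragments in control and 27 and 22 in HA-Bcl-xL cells. SF3B1, the subunit that holds the branch point and is mutated in several cancers, had 20, 14 and 18 against 26 and 20. SF3B3 had 27, 16 and 12 against 18 and 17, and its peaks, 2 to 4 per library, covered 1141, 543 and 367 bases in control and 548 and 579 in HA-Bcl-xL cells. The mean, 636 bases, was the largest of the members, but it rests on control replicate 1: in each other library another member covered more. Its values in control replicate 1 were the highest in both measures. Fewer calls were found at the small subunits SF3B5 (4 libraries, 7 to 13 fragments) and SF3B6 (3 libraries, 8 to 12 fragments).

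SF3B2 was called in no library within 1 kb, and its most 5′ end lies 1635 bases from the MANE Select end. In control replicates 1 and 3 and HA-Bcl-xL replicate 2 its highest summit lay 1986, 1625 and 1646 bases downstream of the most 5′ end with 6, 6 and 10 fragments. In the other two H3K4me3 libraries no peak lay within 2.5 kb.

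Every one of the 13 PRPF genes was called in at least 2 libraries, and 9 in all 5. PRPF38B, a relative of the spliceosomal PRPF38A, had 35, 24 and 33 fragments in control and 38 and 32 in HA-Bcl-xL cells. PRPF31, which joins the U4/U6 and U5 particles and is mutated in retinitis pigmentosa, had 32, 26 and 28 against 25 and 25. PRPF3, a U4/U6 protein, was the lowest of the 9 with 12, 10 and 9 against 11 and 12. PRPF31 in HA-Bcl-xL cells lay below all 3 control values (-0.32 on the log2 scale after centring, SE 0.25; limma adjusted p = 0.946), while PRPF38B and PRPF3 overlapped. PRPF39, also linked to the U1 snRNP, had the family's widest mean, 525 bases, with 637, 538 and 342 in control and 364 and 744 in HA-Bcl-xL cells. The remaining PRPF genes called in only some libraries were PRPF18, a second-step factor (4 libraries), PRPF6, a tri-snRNP bridge (3), the kinase PRPF4B (2) and the ubiquitin ligase PRPF19 (2, with 6 and 4 fragments).

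The SRSF family held both the gene with the highest mean fragments and the most uncalled genes. SRSF4 had 35, 31 and 35 fragments in control and 36 and 30 in HA-Bcl-xL cells, the highest mean of all members (33.4), and its peak ranked at percentile 97.3 to 99.5 of its own list by the authors’ −log10 p. SRSF6 had 19, 19 and 16 against 13 and 18, and SRSF3 had 21, 18 and 11 against 15 and 14. SRSF11, the lowest of the 5 called in every library, had 16, 9 and 11 against 14 and 9 and the widest mean of the family, 331 bases. The lines overlapped in each. SRSF1, the prototype of the family, was called in 4 libraries and not in HA-Bcl-xL replicate 2.

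Within 1 kb, 5 of the 12 SRSF genes were called by no library, and 3 of those 5 had one within 2.5 kb. SRSF10, a splicing repressor when dephosphorylated, had summits 1941, 2186 and 1937 bases downstream in control and 1924 and 1916 in HA-Bcl-xL cells, with 22, 9, 19, 12 and 13 fragments. SRSF2, which binds purine- and pyrimidine-rich exon signals alike, had its highest summit either 1307 to 1461 bases downstream (3 libraries) or upstream, at -1178 and -1111 (control replicate 2 and HA-Bcl-xL replicate 2). SRSF7 had summits 1332, 1703 and 1476 bases downstream in 3 libraries. SRSF8, called within 1 kb only in control replicate 1, had its highest summit 1470 to 1742 bases downstream in all 5 libraries. SRSF10, SRSF2 and SRSF7 were picked for having no peak within 1 kb, which puts their summits in the wider window beyond it. Among all genes called within 2.5 kb, the highest summit lay more than 1 kb downstream in 16.0 to 17.2%, depending on the library.

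The 2 SRSF genes without a peak in the wider window differed from each other. SRSF5 is annotated from an end 40242 bases away from its MANE Select end. Around the MANE Select end it had peaks in all 5 libraries, with 20, 13 and 19 fragments in control and 13 and 13 in HA-Bcl-xL cells, and 4 of those 5 summits lay at -67 to -24 bases from it, negative values being upstream. SRSF12 had no peak within 1 kb of any annotated 5′ end in any library, and its nearest peak lay 28871 to 233777 bases away.

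The most 5′ end and the MANE Select end lay more than 1 kb apart in 6 members: PRPF40B (55343 bases), SRSF5 (40242), SRSF9 (26198), SRSF11 (15698), LSM5 (4903) and SF3B2 (1635). In 45 members the ends lay within 100 bases, and in 22 they were the same. The number of libraries with a peak within 1 kb differed between the ends in 5 members. At the MANE Select end it was 4 instead of 0 in LSM12 (948 bases apart), 3 instead of 0 in SF3B2, 5 instead of 0 in SRSF5 and 4 instead of 5 in SRSF9. PRPF40B was called in all 5 libraries at its most 5′ end, with 37, 15 and 17 fragments in control and 17 and 26 in HA-Bcl-xL cells, but in only 1 library at its MANE Select end. Its most 5′ end lies 73 bases from that of MCRS1, a gene on the opposite strand, so the peak cannot be given to one of them.

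Summits of the 33 members called in all 5 libraries lay mostly at or downstream of the 5′ end. The median over the libraries was within 200 bases of the end in 15, further downstream in 16 and further upstream in 2 members (6.06%, against 14.7% of all 4289 genes). Median summits fell in an intron of the gene in 13 members, in an exon of it in 6 and outside the gene in 14. Of these 14, 4 fell in an exon of another gene: PRPF31 in TFPT, SF3A2 in PLEKHJ1, SNRPD2 in QPCTL and PRPF8 in ENSG00000277597, so their peaks cannot be given to the member alone. The 5 summits lay within 50 bases of each other in 10 members (30.3%, against 29.1% of all genes), while the median distance between the outermost of the 5 was 310 bases in the members and 139 in all genes.

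The tightest of these 10 was SNRPB, whose product is the founding Sm protein, with summits 648, 658 and 651 bases downstream in control and 657 and 644 in HA-Bcl-xL cells, within the intron stretch printed above. LSM1 followed, with 1013 to 1030 bases, then SNRPE at 477 to 494, SRSF4 at 424 to 442 and SNRPA1 at 460 to 479. Near the end itself lay PRPF31 (-42 to -18), PRPF38B (-63 to -25), SF3B4 (-52 to -5) and SRSF9 (-130 to -107), while SF3A1 was at 293 to 328. Each range holds libraries of both lines. By contrast, SF3B3 had summits at 30, 614 and -228 in control and at 20 and -683 in HA-Bcl-xL cells, so libraries of the same line placed its highest summit far apart.

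**Figure D4:**
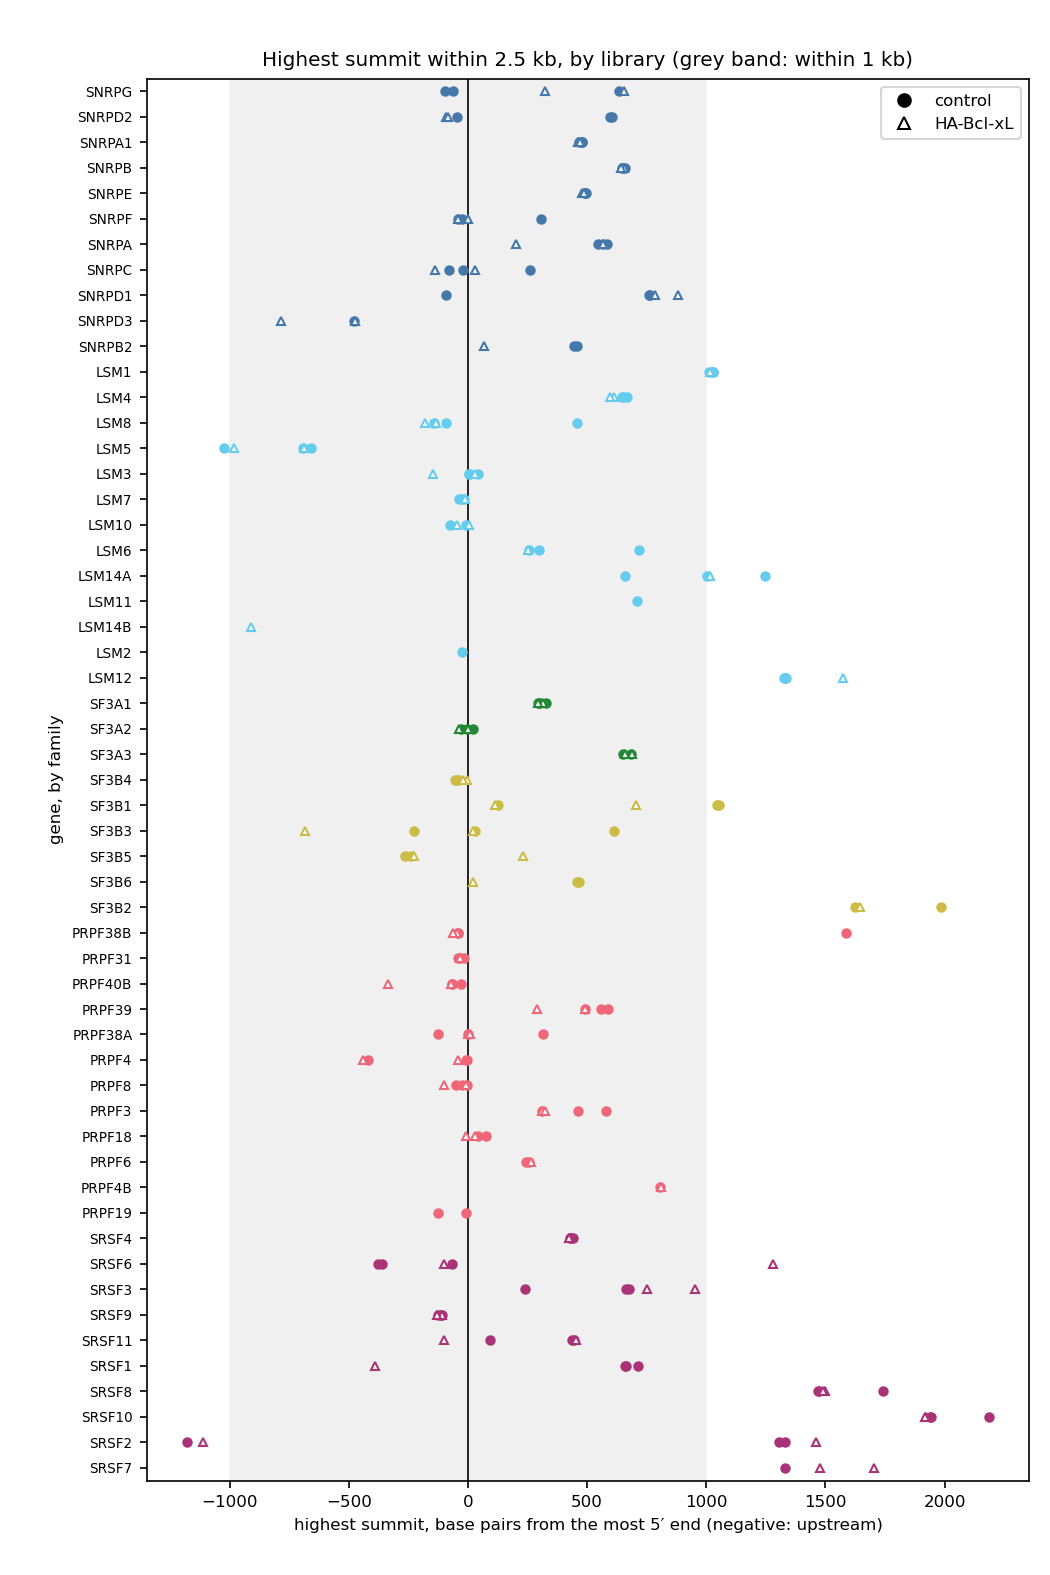
Distance of the highest summit within 2.5 kb from the most 5′ end (horizontal, base pairs, negative upstream) for 55 genes with a peak there, by library; filled circles are control, open triangles HA-Bcl-xL, and the grey band marks 1 kb on each side. SNRPB, SNRPE, SNRPA1 and SRSF4 form tight clusters, and SRSF8, SRSF10, SRSF2 and SRSF7 lie outside the band.

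Bases under peaks and fragments at the summit were compared between lines with limma, on log2 values with each library centred on its median, over the 4289 genes called in all 5 libraries. In both fits 0.0% of genes, and 0 of 33 members, passed an adjusted p of 0.05 (Benjamini-Hochberg; 0.0% for bases and 0.0% for fragments). At an unadjusted p under 0.05 there were 210 genes and 1 member for bases and 256 genes and 1 member for fragments. The median change of the 33 members in bases was -0.04 (log2), beside -0.02 for all genes, with 14 members above and 19 below 0. For fragments the median was -0.11, beside -0.01 for all genes, with 10 above and 23 below. Without centring, the median of all genes moved by over 0.1 (to 0.10 for bases and 0.12 for fragments) and the split turned to 19 above and 14 below for bases and 18 above and 15 below for fragments. Without control replicate 3 the median of the members fitted then was 0.01 for fragments.

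Before centring, the bases of the lines did not overlap in 4 of the 33 members, higher in HA-Bcl-xL cells in PRPF8 and SNRPD1 (10.6% of all genes were) and lower in PRPF40B and SF3A2 (5.62%). For fragments this held in 3, higher in SNRPF (8.04% of all genes) and lower in PRPF31 and SF3A2 (1.8%). With so few libraries and members, these counts are no result about the members.

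PRPF8, the central scaffold of the catalytic core, had the smallest p of the members for bases. Its peak covered 150, 245 and 117 bases in control and 345 and 390 in HA-Bcl-xL cells. The change was 1.05 (log2, SE 0.44; limma adjusted p = 0.962), while the fragments at its summit, 17, 5 and 15 against 11 and 14, did overlap. SRSF9 covered 332, 115 and 106 bases in control and 391 and 179 in HA-Bcl-xL cells (0.61, SE 0.46; limma adjusted p = 0.988). LSM5, an Sm-like subunit, covered 380, 61 and 91 against 284 and 164 bases (0.62, SE 0.54; limma adjusted p = 0.988). Both genes overlapped between the lines. The highest LSM5 summits lay at -1022 to -660 bases from its most 5′ end. AVL9 starts on the opposite strand 143 bases upstream of that end, so these peaks cannot be given to LSM5 alone. Leaving out 1 library moved the change of SRSF9 to between 0.09 (without HA-Bcl-xL replicate 2) and 1.12 (without HA-Bcl-xL replicate 3), and that of LSM5 to between 0.12 (without control replicate 2) and 1.19 (without control replicate 1).

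In the other direction, SF3A2 covered 278, 149 and 125 bases in control and 123 and 90 in HA-Bcl-xL cells (-0.84, SE 0.40; limma adjusted p = 0.969). PRPF40B covered 580, 498 and 394 against 231 and 391 bases (-0.82, SE 0.42; limma adjusted p = 0.969). SNRPC, a U1 snRNP protein that helps to bind the donor splice site, covered 303, 189 and 276 against 219 and 104 bases (-0.86, SE 0.45; limma adjusted p = 0.969), with overlap. Without HA-Bcl-xL replicate 2 the change was -0.38 in PRPF40B and -1.35 in SNRPC, and without HA-Bcl-xL replicate 3 it was -1.24 and -0.37. None of these changes passed the test, and the median SE of the 33 members was 0.44 (log2).

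**Figure D5:**
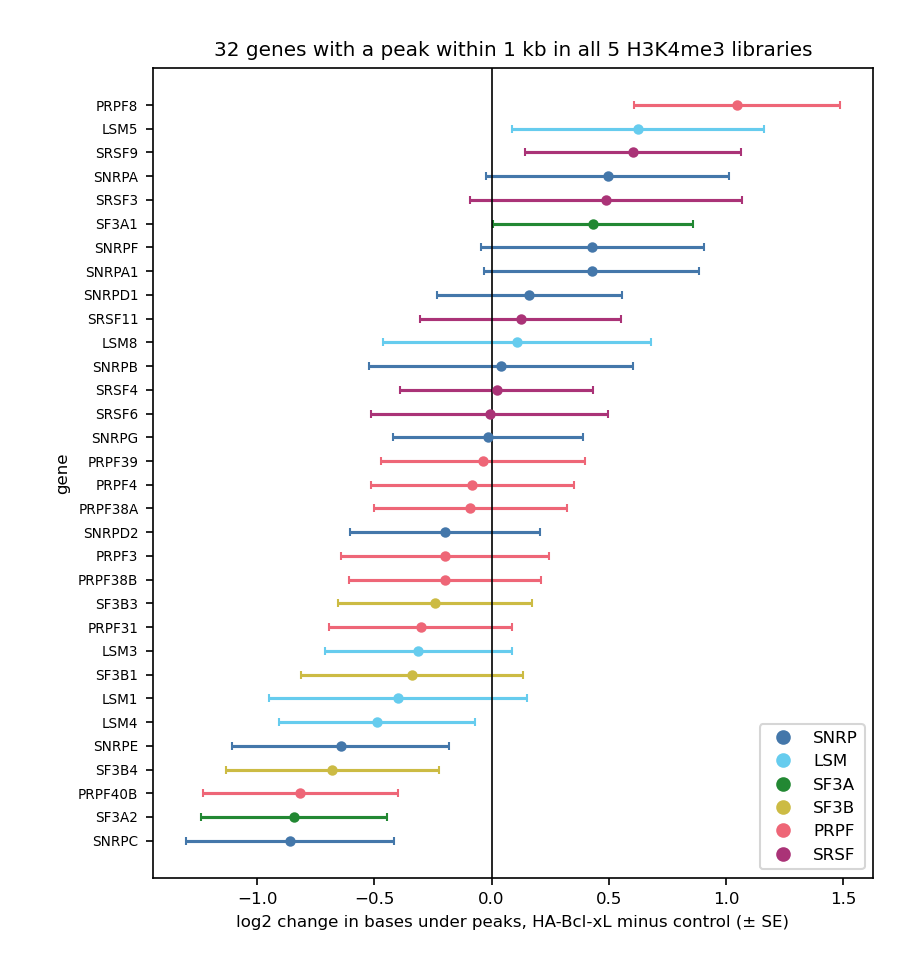
Log2 change in bases under peaks within 1 kb, HA-Bcl-xL minus control, with its standard error (bars) from limma for 32 of the 33 members called in all 5 H3K4me3 libraries, coloured by family. PRPF8 stands at 1.05 and SNRPC at -0.86, and no member passed an adjusted p of 0.05.

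The promoters of the 60 members had about the GC content of others and more CpG. In the stretch from 250 bases before to 50 after the 5′ end, the median GC content was 61.0% for the members and 60.3% for all genes, and the median observed-to-expected CpG ratio was 0.909 against 0.694. Peaks were rarer at low-GC promoters in both sets. Among the 3 lowest deciles of GC content the mean share called over the 5 libraries was 30.0% for 8 members and 17.2% for genes. Among deciles 4 to 10 it was 78.5% for 52 members and 42.8% for genes. The share did not rise throughout: in the highest decile it was 26.7% for 3 members and 30.7% for genes. In deciles 9 and 10 together the members' median CpG ratio was 0.972 and their share 70.0%, against 0.897 and 80.6% in deciles 5 to 8. The part of base composition in the members' higher share was not tested.

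Divergent neighbours were commoner too. A protein-coding gene on the opposite strand started within 1 kb of the 5′ end of 11 members (18.3%, against 8.45% of genes), among them XPC beside LSM3, ORC1 beside PRPF38A, CDC26 beside PRPF4 and GEMIN6, an snRNP assembly factor, beside SRSF7. Of these 11 members, 7 were called in all 5 libraries (63.6%, against 52.3% of genes with such a neighbour). Among the 42 members with no divergent gene, 22 were called in all 5 (52.4%), against 17.3% of such genes. Of the 7 members with only a divergent long noncoding RNA gene, 4 were called in all 5 (57.1%, against 31.9% of such genes). The 7 of 11 lie near the genes' share. With so few members, neither count with a divergent gene is a result about the members. Without a divergent gene the members' share was the higher.

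Of 10 motifs searched on both strands of the same 300 bases, CCGGAAG, the core bound by ETS-family factors, stood furthest from the genes' share. It was found in 22 of 60 members (36.7%) against 11.8% of all genes and 24.0% of the genes called in all 5 libraries. The 22 comprised 8 of 11 SNRP, 3 of 3 SF3A, 3 of 6 SF3B, 5 of 13 PRPF, 2 of 15 LSM and 1 of 12 SRSF genes, the last being SRSF4. Of the 33 members called in all 5 libraries 16 held it. CCAAT, the motif of NF-Y, was found in 28 members (46.7%, against 35.8% of genes). GGGCGG, bound by Sp1, was found in 31 members (51.7%, against 52.2%). TATAAA was found in 5 members (8.33%, against 10.9%), and so was the E-box CACGTG (8.33%, against 8.33%). GCGCATGCG and AAGATGGCG were each found in 2 members (3.33%, against 2.34% and 1.87%). TGACGTCA and TGACGCAA and ACTACAATT were found in no member, against 2.28%, 0.621% and 0.382% of genes.

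Splicing genes outside the 6 families were counted in the same way. Of 121 such genes in 8 lists, 70 (57.9%) had a peak within 1 kb in all 5 libraries and 17 in none, beside 55.0% of the members and 21.3% of all genes called in all 5. Around any transcript's end 84 of the 121 were called in all 5, beside 36 of the 60 members and 26.5% of all genes. Around the MANE Select end it was 79 of the 121, with 6 in none, beside 32 of the 60 members, with 6 in none, and 23.2% of all genes. The difference between these genes and the members was not tested. The share called in all 5 was 77.8% for second-step proteins (7 of 9), 66.7% for other snRNP proteins (16 of 24), and 63.6% each for helicases (7 of 11), PRPF19-complex and activation-complex proteins (14 of 22) and the exon junction complex (7 of 11). It was 56.2% for snRNP assembly proteins (9 of 16), 41.7% for U2 auxiliary and branch point proteins (5 of 12) and 31.2% for SR kinases and SR-related proteins (5 of 16). RBM8A, of the exon junction complex, had a mean of 38.8 fragments, and GEMIN2, of snRNP assembly, 28.6. The kinases SRPK1, SRPK2 and CLK4 had no peak within 1 kb of the most 5′ end, but SRPK1 had one within 2.5 kb, and CLK4 one within 1 kb of its MANE Select end, in all 5 libraries. The U2 auxiliary list rose to 8 of 12 around any transcript's end and also around the MANE Select end. Around any transcript's end, 9 of the 16 genes in the SR kinase list were called in all 5 libraries, and around the MANE Select end 7.

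The lists held 10247 to 17711 peaks in the H3K4me3 libraries and 244 to 2113 in the IgG libraries, with a median of 9 to 12 and of 3 to 5 fragments at the summit. The lowest background in a list, which scales with depth, was 0.0478 to 0.0705 fragments in the H3K4me3, 0.0333 to 0.0433 in the control IgG and 0.0706 to 0.0897 in the HA-Bcl-xL IgG libraries. Of the markers checked against the labelled cell type, 2 to 5 of 9 neuroendocrine and 3 to 4 of 4 epithelial genes were called per H3K4me3 library, with CHGB and NEUROD1 called in all 5 libraries and INSM1 in none. No mesenchymal (3), leukocyte (4) or endothelial (1) marker was called within 1 kb of its most 5′ end in any, while around any transcript's end the mesenchymal VIM and COL1A1 were each called in 1 library. At a depth of about 10 fragments per summit, a missing peak says that none was detectable, not that the mark was absent.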

How the data were processed

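CUT&RUN peak lists of 11 libraries were analysed, 1 deposited list per library, so the authors had not pooled replicates to call peaks. The submitters' processing notes name bcl2fastq 2.20, Trimmomatic 0.36, Bowtie2 2.2.9, MACS2 2.1.1, deepTools 3.5.1 and hg19; which control, duplicate treatment and cutoff were used is not given in the sources used here. Each deposited list gives a score, a fold (ratio over background), a −log10 p and a −log10 q for each peak, all the authors' values; they were used only within their list, while the fragments solved from them were compared between lists. Fragments at a summit were solved from the deposited fold and −log10 p as the whole number of fragments that gives both, assuming a Poisson tail; this succeeded to within 0.001 for 95.9 to 99.97% of peaks per list. Whether they are fragments or single reads is not recorded.

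Promoters were the stretch within 1 kb (or 2.5 kb) of the most 5′ end in GENCODE release 44 lifted to GRCh37. The labels gave each library's group and replicate number. Shares were compared by two-sided exact permutation tests over libraries (scipy 1.17.1) with Benjamini-Hochberg adjustment over 4 tests, and bases and fragments with limma 3.58.1 (R 4.3.3). Python 3.11.15, numpy 2.4.6, pandas 2.3.3 and pysam 0.24.0 were used. The solver, the promoter calls and the limma step were tested on simulated data. Members, gene lists and motifs were chosen with earlier results of these data known. The naming rule took members specific to a line, members with no peak, the 3 highest and the lowest in fragments and the widest in bases per family, the 3 smallest p for bases in each direction, and members called only in the wider window; other members, such as SNRPB, SNRPE and SRSF8, and the genes outside the families were named after their values were seen. Counts and p-values cover the libraries only, since PCR copies are not independent molecules. One gene among the members, 1 marker gene and 1 promoter sequence are not reported here.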

Additional observations from a re-analysis of the deposited data

How the results depend on the processing

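The sign of the small difference in the share of members called, HA-Bcl-xL minus control, was not stable. With a −log10 q of at least 5 it was 0.278 percentage points within 1 kb and 0.00 within 2.5 kb. With equal list lengths it was -4.72 and -6.67. Leaving out 1 library gave -4.17 to 2.5 points within 1 kb and -4.17 to 1.67 within 2.5 kb. The excess over IgG kept its direction throughout, at 68.3 to 75.0 points in control and 70.0 to 71.7 in HA-Bcl-xL cells without 1 library. Deviations of same-numbered replicates of the lines had correlations over genes of 0.026 and 0.048 for bases, and 0.017 and 0.012 for fragments. With only 2 HA-Bcl-xL libraries, their deviations are mirror images, so these values do not decide whether the numbers pair libraries. Pairing through a shift shared by all genes of a library was not tested. A replicate block gave 2.5 points within 1 kb and 1.67 within 2.5 kb, each with exact permutation p = 0.5, the smallest possible with 2 pairs. At equal list lengths 1 member (SRSF1) was control-only instead of 0 (0.392% of all genes), and without 1 library the count was 0 to 1 for HA-Bcl-xL (1.08 to 3.04% of all genes) and 0 to 2 for control (0.392 to 1.16%). No member was called by limma under any alternative; among all genes the replicate block called 11 higher and 2 lower for bases and 1 for fragments, and leaving out HA-Bcl-xL replicate 3 called 4 and 5, replicate 2 called 2 and 1 (with 1 HA-Bcl-xL library left, which is assumed to vary like the controls, so these calls rest on the spread of the controls alone), control replicate 2 called 1, and genes called in at least 4 libraries gave 1 for bases. Under the block the members split into 11 above and 22 below 0 for bases and 7 and 26 for fragments. Control replicate 1 has no partner of its number, so the block takes it out of the change between lines. The changes then nearly match those without that library, such as 1.19 for LSM5 bases in both. Leaving out control replicate 1 called 0 genes in both fits. Of the 12 gene changes followed, 4 of which could not be fitted with a −log10 q of at least 5 (PRPF8, LSM5 and SF3A2 for bases, SF3A2 for fragments), SNRPF alone changed sign, at -0.042 (log2 fragments) under the block; without 1 library its change ran from -0.042 to 0.71, against 0.39. The alternative of the MANE Select end was chosen after seeing the data. The cause of these changes was not tested. With 9 to 12 fragments at the median summit, depth limits which peaks were detectable; the number of libraries, 3 against 2, keeps the exact permutation p at 0.2 or above.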
